A study of Mus musculus with 24 samples.

Results

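The accessory subunits of the variant PRC1 complexes were followed in mouse embryonic stem cells (ESCs) that lost PRC1 or lost only its catalytic activity. These are the 10 genes Kdm2b, Bcor, Bcorl1, E2f6, L3mbtl2, Mga, Auts2, Fbrs, Rybp and Yaf2, chosen by symbol from the 20633 transcripts (19409 gene symbols) of the RNA-seq table, with the row of the largest summed normalised read count taken where a symbol had more than 1 row. Each had a row, and each passed the minimum of 10 reads in 3 libraries, as did 16940 rows in all. Kdm2b alone had a further row.

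PRC1 is the E3 ubiquitin ligase of the Polycomb system, built on RING1A or RING1B paired with a PCGF protein, and it places ubiquitin on histone H2A. Canonical complexes carry CBX and PHC subunits and read the methylation left by PRC2, whereas variant complexes carry RYBP or YAF2 in place of CBX and gain their targeting from accessory subunits. KDM2B with BCOR or BCORL1 marks the PCGF1 complex, AUTS2 and FBRS the PCGF3 and PCGF5 complexes, and E2F6, MGA and L3MBTL2 the PCGF6 complex, which represses germ cell genes in ESCs.

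The 12 libraries came from 2 engineered lines derived from male E14 ESCs, each a single clone grown in serum and LIF on gelatin. PRC1CKO (clone B9) has the genotype Ring1a-/-, Ring1b fl/fl, Rosa26::ERT2-Cre, so that its untreated cells already lacked RING1A and 4-hydroxytamoxifen (OHT) deleted the coding start of Ring1b, leaving no RING1A or RING1B. PRC1CPM (clone 41) carries the Ring1a substitutions I50A and D53K in all its cells, a Ring1b exon pair that OHT inverts from wild type to I53A and D56K, and Rosa26::ERT2-Cre, so that treated cells held PRC1 with no catalytic activity. Each line was sampled untreated (UNT) and after 800 nM OHT for 72 h, with 3 libraries a group, and Drosophila SG4 cells were mixed in before extraction as a spike-in. The study calls such libraries biological replicates, and the sources do not say whether the 3 were grown as separate cultures, so the p-values measure the spread between these libraries, and no group received OHT without carrying a floxed Ring1b.

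Libraries held 14668159 to 27016156 reads in genes. The level given throughout is the spike-in normalised read count, reads over the whole gene body (exons and introns) divided by the library's size factor. Its summed value per library ran from 17618069 in PRC1CKO UNT replicate 2 to 26077686 in PRC1CPM OHT replicate 1, and replicate 1 had the highest sum of each group. The genes engineered in the lines were checked first, although deletion or inversion of an exon need not lower a count over the gene body. The normalised read count of Rnf2, which encodes RING1B, lay between 1385 and 1756 in the untreated PRC1CKO libraries and between 1489 and 1585 after OHT, and in PRC1CPM between 1578 and 1850 and then between 1295 and 1724. That of Ring1, which encodes RING1A, lay between 166 and 313 in all PRC1CKO libraries and between 111 and 182 in all PRC1CPM libraries. The 6 pluripotency markers that define ESCs had a summed normalised read count of 29765 to 53593, with Esrrb the most abundant and none at 0. Sox2, a core pluripotency factor, was called lower in PRC1CKO, from a mean of 7151 to 3825 (log2 fold change -0.89, adjusted p = 0.00051), and its part in the results below was not tested. The other 5 were not called in PRC1CKO and none of the 6 was called in PRC1CPM with the spike-in scale and all libraries. Pou5f1 was called lower in PRC1CKO with TMM scaling and without PRC1CKO UNT replicate 2, and Klf4 higher in PRC1CPM without PRC1CPM OHT replicate 2.

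Of other cell types, the 5 primitive endoderm markers moved with OHT. Their summed normalised read count was 616 to 1723 in untreated PRC1CKO and 3004 to 4218 after OHT, and 683 to 811 in untreated PRC1CPM and 1465 to 2216 after OHT. Of the 5, 4 were called higher in PRC1CKO and 5 in PRC1CPM (3 to 5 in each when single libraries were left out), with Pdgfra the most abundant and none at 0, and their part in the results below was not tested. In bulk RNA, a change in the number of such cells and a change in RNA per cell cannot be told apart. Of the 4 neural markers, Neurog2 and Map2 were higher in both lines and Tubb3 lower in PRC1CKO. None of these was called in PRC1CKO without its OHT replicate 1 or UNT replicate 3, nor in PRC1CPM with a pseudocount of 0.1, without its OHT replicate 1 or UNT replicate 2, or without both of its replicate 1 libraries. The 5 fibroblast markers stood apart in replicate 1 of PRC1CPM, at 14461 (UNT) and 14740 (OHT) against 2031 to 6192 in the other 10 libraries. Col1a1 was their most abundant gene, none was at 0 in every library, and by limma on the spike-in scale Thy1 was called higher in PRC1CKO after OHT and no marker in PRC1CPM. These calls depended on the setting. Thy1 was lost with TMM scaling and when any of 7 single libraries was left out, Col3a1 was called lower in PRC1CKO by edgeR and with the replicate block, and Col1a2 was called lower in PRC1CPM by edgeR, with TMM scaling and with the block. Col1a1 was called higher in PRC1CPM than in PRC1CKO after OHT (log2 difference 1.44, adjusted p = 0.0203). With both PRC1CPM replicate 1 libraries left out, an alternative chosen after seeing the data, 4 subunits were still called in each line, as with them.

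The central question was which accessory subunit genes changed when PRC1 was removed and when only its catalysis was removed. Bcor, Bcorl1, E2f6 and Auts2 were higher after OHT in both lines, while Kdm2b, Mga, L3mbtl2, Fbrs, Rybp and Yaf2 were not called in either. A call required an adjusted p below 0.05 (limma, Benjamini-Hochberg over all tested genes) and a change above 1.5-fold on the log2(count + 1) scale. The 4 of 10 higher in PRC1CKO stand beside 16.5% of all tested genes, the 4 of 10 higher in PRC1CPM beside 13.1%, and the 4 higher in both beside 11.6%. No subunit was called lower, beside 3.09% of tested genes in PRC1CKO and 1.4% in PRC1CPM, and 0 had an unadjusted p below 0.05 in that direction by limma without a replicate block, edgeR or DESeq2 on the spike-in scale with all libraries. With the block Mga was lower at such a p in PRC1CPM, and with TMM scaling in both lines. In PRC1CPM 1 subunit was also lower at such a p without PRC1CPM OHT replicate 1 and without PRC1CPM UNT replicate 2. The median log2 fold change of the 10 was 0.36 in PRC1CKO and 0.32 in PRC1CPM, against 0.12 and 0.10 over all tested genes. TMM scaling, which centres the typical gene near 0 by construction, gave medians over all genes of -0.0019 and -0.0072, and the counts of subunits called in the OHT comparisons did not change. With it the share of calls that were higher went from 84.2% to 71.5% in PRC1CKO and from 90.4% to 80.1% in PRC1CPM. Calls of higher genes did not become fewer (2787 and 2845 in PRC1CKO, 2226 and 2396 in PRC1CPM), while calls of lower genes went from 524 to 1133 and from 237 to 595. These counts also depended on single libraries. With 1 left out on the spike-in scale, lower calls ran from 326 to 674 in PRC1CKO and from 123 to 339 in PRC1CPM. Higher calls then ran from 2016 to 3729 in PRC1CKO and from 1439 to 2547 in PRC1CPM.

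**Figure D1:**
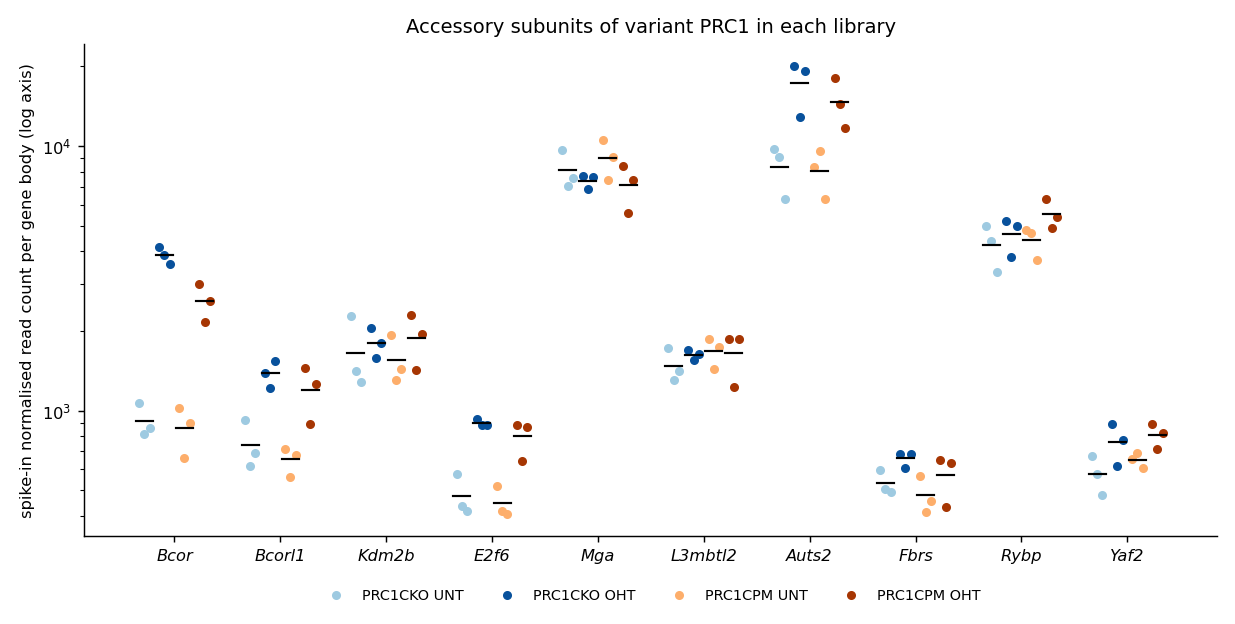
Spike-in normalised read count per gene body of each accessory subunit (log axis) in the 12 libraries. Points are libraries in replicate order and black bars group means (n = 3), and the OHT libraries lie above the untreated libraries of both lines for Bcor, E2f6 and Auts2.

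Bcor, the BCL6 corepressor and a scaffold of the PCGF1 complex, had the largest change of the 10. Its row (NM_029510) covers 43.8 kb of the X chromosome on the minus strand, chrX:12036738-12080553 in mm10, with 15 exons and no other annotated gene inside. The normalised read count was 1071, 817 and 859 in untreated PRC1CKO and 4136, 3878 and 3576 after OHT. In PRC1CPM it was 1018, 660 and 899 untreated and 3009, 2168 and 2592 after OHT. Every OHT library of both lines lay above every untreated library, which held for 12.2% of tested genes. The log2 fold change was 2.08 ± 0.22 (SE, adjusted p = 5.5e-11), a 4.24-fold rise (95% confidence interval 3.13 to 5.74), in PRC1CKO. It was 1.60 ± 0.22 (adjusted p = 1.4e-07), a 3.03-fold rise (2.24 to 4.11), in PRC1CPM. Among all tested genes these changes ranked at percentiles 94.4 and 93.5.

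Bcor was also the member whose OHT level differed most between the lines. The 3 PRC1CPM OHT libraries all lay below the 3 PRC1CKO OHT libraries, a pattern in this direction that 4.35% of tested genes showed, and the log2 difference was -0.59 ± 0.22. That difference was not called without a replicate block on the spike-in scale (adjusted p = 0.205, with 1.47% of genes called in either direction). It was called with the block on the same scale (-0.59, adjusted p = 0.000308, with 8.05% of genes called) and with TMM scaling (-0.69, adjusted p = 0.00122, with 4.63% of genes called). On the spike-in scale the difference was 1.5024-fold, barely past the 1.5-fold limit. With single libraries left out and no block it ran from -0.70 to -0.47 on the log2 scale. Without the block on the spike-in scale, leaving out PRC1CKO OHT replicate 2 gave 0.685% of genes called. Leaving out PRC1CKO UNT replicate 1 gave 2.82%, and Bcor was called in neither fit. The test of the difference in response, the line by treatment interaction, gave -0.48 ± 0.31 for Bcor with an adjusted p of 1.0, so a smaller rise in PRC1CPM was not shown.

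Bcorl1, the X-linked paralog of Bcor that can take its place in the complex, rose less. It lies at chrX:48341358-48406728 on the plus strand (NM_178782, 65.4 kb, 15 exons) with no other annotated gene inside. Its normalised read count was 921, 618 and 689 in untreated PRC1CKO and 1390, 1222 and 1538 after OHT, and 717, 561 and 680 in untreated PRC1CPM and 1446, 890 and 1264 after OHT. Within each line the groups did not overlap, but the lowest OHT library, PRC1CPM replicate 2, was below the highest untreated library, PRC1CKO replicate 1. The log2 fold change was 0.91 ± 0.23 in PRC1CKO (1.88-fold, adjusted p = 0.00249) and 0.86 ± 0.23 in PRC1CPM (1.81-fold, adjusted p = 0.00651). Without PRC1CPM OHT replicate 1 the PRC1CPM change was 0.71 with an adjusted p of 0.0584.

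Kdm2b encodes the CXXC-domain histone demethylase that brings the PCGF1 complex to unmethylated CpG islands. Its main row (NM_001003953, chr5:122870676-122989099, minus strand, 118.4 kb, 23 exons) gave 2272, 1411 and 1277 normalised reads in untreated PRC1CKO and 2043, 1577 and 1797 after OHT. In PRC1CPM it gave 1929, 1301 and 1430 untreated and 2288, 1418 and 1939 after OHT. The groups overlapped in both lines, with log2 fold changes of 0.17 (95% confidence interval -0.30 to 0.63) and 0.27 (-0.19 to 0.73). The further row, NM_013910, is the short form without the demethylase domain, and its 29.7 kb body lies almost wholly inside the main row, so that the rows share reads. Its log2 fold changes were 0.33 and 0.40, also not called. A long noncoding gene on the opposite strand, Gm33118, covers 9.04% of the main row.

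E2f6, an E2F-family repressor without a transactivation domain and a DNA-binding subunit of the PCGF6 complex, rose in both lines. It lies at chr12:16810965-16826752 on the plus strand (NM_033270, 15.8 kb, 7 exons), with no other annotated gene inside. Its normalised read count was 576, 436 and 418 in untreated PRC1CKO and 932, 885 and 879 after OHT, and 517, 417 and 407 in untreated PRC1CPM and 883, 646 and 870 after OHT. All 6 OHT libraries lay above all 6 untreated libraries. The log2 fold change was 0.93 ± 0.24 in PRC1CKO (1.90-fold, adjusted p = 0.00254) and 0.83 ± 0.24 in PRC1CPM (1.78-fold, adjusted p = 0.00982). The PRC1CPM call was lost without PRC1CPM UNT replicate 3 (0.77, adjusted p = 0.0724) and without PRC1CPM OHT replicate 3 (0.77, adjusted p = 0.0685).

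The other PCGF6 subunits were not called. Mga, which joins a T-box and a bHLH domain and dimerises with MAX, had normalised read counts of 9688, 7070 and 7599 in untreated PRC1CKO and 7693, 6891 and 7630 after OHT, and 10547, 7461 and 9132 in untreated PRC1CPM and 8424, 5589 and 7445 after OHT. The groups overlapped in both lines, and the log2 fold changes were -0.12 (95% confidence interval -0.52 to 0.28) and -0.35 (-0.75 to 0.06). In PRC1CPM each OHT library lay below the untreated library of the same number, and with the replicate block the adjusted p was 0.0342 (0.333 without it), still under the 1.5-fold limit. With TMM scaling they were -0.24 (adjusted p = 0.0306) and -0.45 (adjusted p = 0.000832), also under that limit. L3mbtl2, an MBT-domain protein that compacts chromatin, had 1728, 1301 and 1407 normalised reads in untreated PRC1CKO and 1688, 1547 and 1632 after OHT. In PRC1CPM it had 1857, 1438 and 1746 untreated and 1862, 1232 and 1858 after OHT, and both comparisons overlapped. Its log2 fold changes were 0.14 (-0.29 to 0.58) and -0.04 (-0.48 to 0.39). Mga lies at chr2:119897228-119969581 on the plus strand and L3mbtl2 at chr15:81663889-81688315 on the plus strand, where 8.80% of the L3mbtl2 body overlaps Chadl on the opposite strand.

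Auts2, which gives the PCGF3 and PCGF5 complexes their link to CK2 and p300 and is a neurodevelopmental gene, rose in both lines. Its body of 1104.7 kb at chr5:131437682-132542343 (NM_177047, minus strand) is the longest of the 10, and curated exons make up 0.548% of it, and reads were not split into exonic and intronic. The normalised read count was 9717, 9083 and 6311 in untreated PRC1CKO and 20020, 12920 and 19199 after OHT, and 8301, 9585 and 6284 in untreated PRC1CPM and 18026, 14424 and 11712 after OHT. All 6 OHT libraries lay above all 6 untreated libraries. The log2 fold change was 1.05 ± 0.21 in PRC1CKO (2.07-fold, adjusted p = 0.000109) and 0.87 ± 0.21 in PRC1CPM (1.83-fold, adjusted p = 0.00205).

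Fbrs, which encodes fibrosin, a paralog of AUTS2 in these complexes, did not pass. It had 596, 504 and 490 normalised reads in untreated PRC1CKO and 684, 606 and 686 after OHT, and 564, 414 and 457 in untreated PRC1CPM and 650, 432 and 635 after OHT. Its PRC1CKO groups did not overlap and its PRC1CPM groups did, with log2 fold changes of 0.32 (95% confidence interval -0.17 to 0.80) and 0.25 (-0.24 to 0.74). Its row covers chr7:127485221-127491513 on the plus strand.

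Rybp and Yaf2 encode the paralogous adaptors that every variant complex shares and that bind ubiquitylated H2A. Rybp (chr6:100228565-100287358, minus strand) had 4984, 4383 and 3346 normalised reads in untreated PRC1CKO and 5194, 3804 and 4978 after OHT. In PRC1CPM it had 4801, 4707 and 3717 untreated and 6308, 4909 and 5371 after OHT. The PRC1CKO groups overlapped and the PRC1CPM groups did not, and the log2 fold changes were 0.14 (-0.27 to 0.55) and 0.33 (-0.08 to 0.74). In PRC1CPM each OHT library of Rybp lay above the untreated library of the same number, and with the replicate block the adjusted p was 0.0409 (0.387 without it), under the 1.5-fold limit. Yaf2 (chr15:93283833-93336935, minus strand) had 670, 577 and 480 in untreated PRC1CKO and 886, 617 and 776 after OHT, and 655, 688 and 607 in untreated PRC1CPM and 888, 718 and 819 after OHT. Its PRC1CPM groups likewise did not overlap, with log2 fold changes of 0.40 (-0.07 to 0.87) and 0.31 (-0.16 to 0.78). In all, 5 subunits had OHT libraries wholly above the untreated ones in PRC1CKO and 6 in PRC1CPM, beside 22.1% and 18.7% of tested genes.

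**Figure D2:**
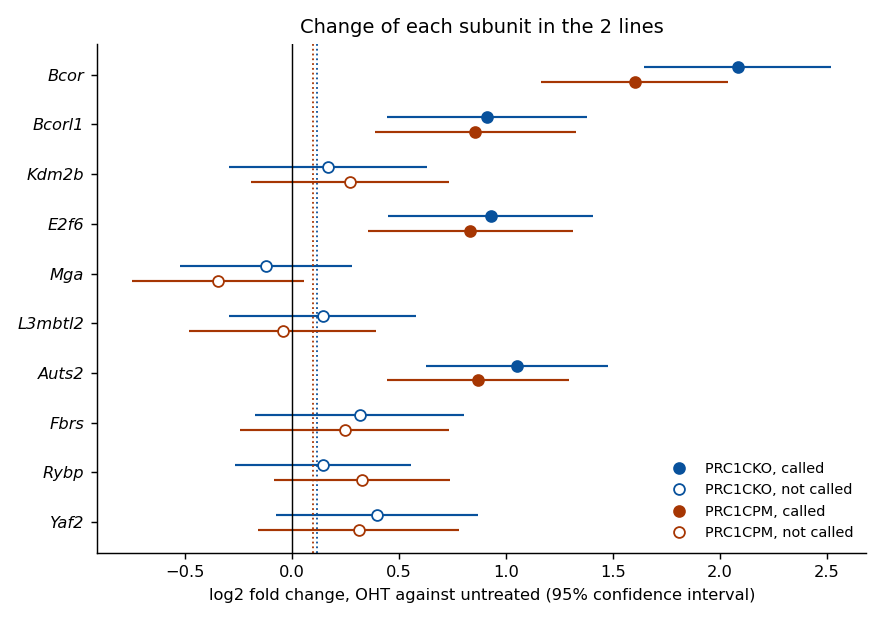
log2 fold change of each accessory subunit, OHT against untreated, with 95% confidence intervals (limma, 3 libraries a group). Filled points were called and dotted lines mark the medians over all tested genes, 0.12 in PRC1CKO (blue) and 0.10 in PRC1CPM (brown). The intervals of Bcor, Bcorl1, E2f6 and Auts2 lie above both medians.

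No subunit was called in the line by treatment interaction, where 0.0236% of all genes were, or between the untreated lines, where 2.69% were. With the replicate block these shares were 1.91% and 11.1%, and without PRC1CKO UNT replicate 1 they were 0.165% and 9.27%, and again no subunit was called. The interaction estimates ran from -0.48 (Bcor) to 0.19 (Rybp), and without the block no member had an unadjusted p below 0.05 in it or between the untreated lines. Their 95% confidence intervals reached beyond 0.5 on the log2 scale for every member in at least 1 direction without the block, so that differences in response of that size were not excluded in that fit. The untreated lines differed by -0.17 (Bcorl1) to 0.19 (L3mbtl2), with an adjusted p of 0.876 or more. Between the OHT-treated lines only Bcor had an unadjusted p below 0.05 in that fit.

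**Figure D3:**
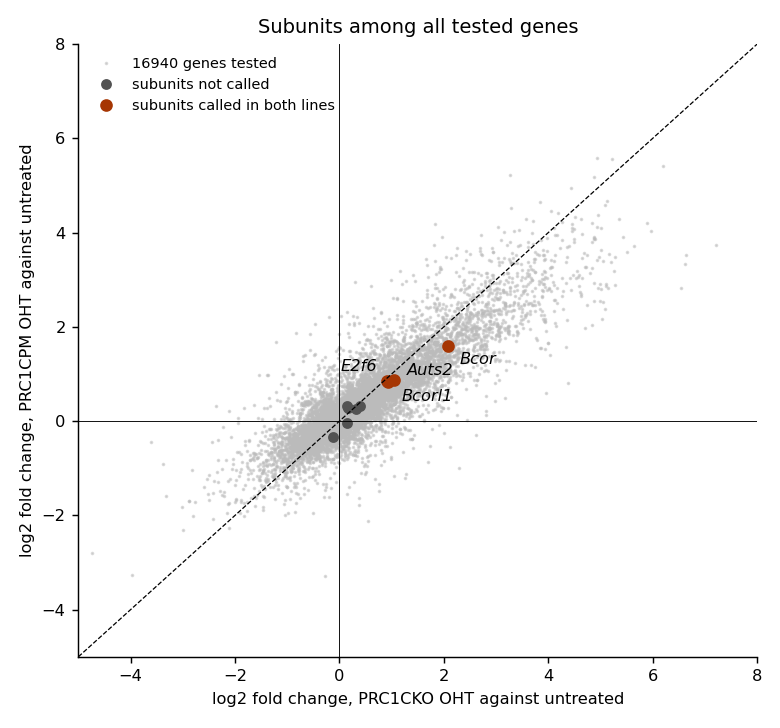
log2 fold change after OHT in PRC1CKO (x axis) and PRC1CPM (y axis) for the 16940 tested genes (grey) and the accessory subunits. The dashed line marks equal change, and Bcor (2.08 and 1.60) lies farther out than Bcorl1, E2f6 and Auts2.

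Levels were compared between the genes per kb of gene body. In untreated PRC1CKO the order of mean normalised reads per kb was Mga (112 ± 19.1, SD), Fbrs (84.2 ± 9.11), Rybp (72.1 ± 14.1), L3mbtl2 (60.5 ± 9.09), E2f6 (30.2 ± 5.50), Bcor (20.9 ± 3.11), Kdm2b (13.96 ± 4.56), Bcorl1 (11.4 ± 2.42), Yaf2 (10.9 ± 1.79) and Auts2 (7.58 ± 1.64), n = 3 each. The ranges of Fbrs and Rybp, of Rybp and L3mbtl2, and of each neighbouring pair from Bcor to Yaf2 overlapped. In untreated PRC1CPM the order of levels per kb was alike except that Yaf2 (12.2 ± 0.763) stood above Bcorl1 (9.99 ± 1.25). After OHT, Bcor moved from rank 6 to rank 3 in PRC1CKO (88.2 ± 6.40 normalised reads per kb) and to rank 5 in PRC1CPM (59.1 ± 9.59). In PRC1CKO its OHT libraries (81.6 to 94.4 per kb) then lay below those of Mga (95.2 to 106) and overlapped those of Rybp (64.7 to 88.3). Divided by exon length in place of body length, Auts2 was the highest of the 10 in each untreated group and Bcorl1 the lowest, so the order depends on the length used.

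Start sites are shown for the subunits that rose together and for Mga, which did not, because unmethylated CpG-rich starts are what KDM2B binds and E2F6 and MGA have known DNA motifs. RefSeq promoter entries (GRCm38.p6) matched 7 of the 10 symbols. Rybp, Yaf2 and Auts2 had no entry. The 250 bases before each start are given 5′ to 3′ on the gene's strand, with CpG dinucleotides in capitals, for Bcor at chrX:12160347-12160596 (minus), Bcorl1 at chrX:48341108-48341357 (plus), E2f6 at chr12:16810715-16810964 (plus) and Mga at chr2:119896978-119897227 (plus). The Bcor entry, the first of 2, lies 79793 bases upstream of the start of the counted row, while those of Bcorl1, E2f6 and Mga abut it.
Bcor: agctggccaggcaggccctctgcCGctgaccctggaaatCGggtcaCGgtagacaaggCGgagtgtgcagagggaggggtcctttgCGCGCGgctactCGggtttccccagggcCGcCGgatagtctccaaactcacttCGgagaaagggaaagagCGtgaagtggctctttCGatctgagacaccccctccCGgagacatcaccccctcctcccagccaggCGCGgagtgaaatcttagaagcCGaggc
Bcorl1: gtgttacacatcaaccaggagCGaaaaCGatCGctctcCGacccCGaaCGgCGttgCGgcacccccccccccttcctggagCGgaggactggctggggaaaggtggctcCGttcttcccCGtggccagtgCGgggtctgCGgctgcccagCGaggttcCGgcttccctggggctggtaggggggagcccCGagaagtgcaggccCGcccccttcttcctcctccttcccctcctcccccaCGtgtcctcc
E2f6: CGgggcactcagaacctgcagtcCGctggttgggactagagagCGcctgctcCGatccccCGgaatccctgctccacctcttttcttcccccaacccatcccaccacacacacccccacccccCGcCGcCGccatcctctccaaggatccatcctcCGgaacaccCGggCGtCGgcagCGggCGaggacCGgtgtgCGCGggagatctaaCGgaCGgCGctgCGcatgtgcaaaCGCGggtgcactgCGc
Mga: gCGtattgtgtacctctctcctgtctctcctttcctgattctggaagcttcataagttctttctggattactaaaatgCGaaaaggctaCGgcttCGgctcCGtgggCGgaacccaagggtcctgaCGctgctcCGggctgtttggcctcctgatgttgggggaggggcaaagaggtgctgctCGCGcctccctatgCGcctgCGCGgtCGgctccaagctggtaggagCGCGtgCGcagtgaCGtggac
These windows held 17 CpGs (Bcor), 18 (Bcorl1), 24 (E2f6) and 18 (Mga), above a median of 6 over all 32851 promoter windows of that length. The windows of the other subunits with an entry, none of them called, held 13 CpGs (L3mbtl2), 14 (Fbrs) and 12 to 38 (Kdm2b). The E2F core TCCCGC, searched on both strands, was found 53 bases before the E2f6 start and not in the other 3 windows, and it was in 16.9% of all windows. Among the uncalled subunits it was also found for Kdm2b, 243 and 13 bases before the starts of separate entries. The E-box CACGTG, which MAX dimers bind, was found 12 bases before the Bcorl1 start and was in 6.02% of all windows. The T-box half-site AGGTGTGA (both strands) was in none of the 4 and in 1.12% of all. No match of a motif overlapped a match of another in these windows.

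The other genes of the pathway were taken from lists. Of 18 other variant PRC1 partners, among them Pcgf1, Pcgf3, Pcgf5, Pcgf6, Max, Usp7 and the CK2 subunits, 0 were called in either line by limma, edgeR or DESeq2 with the spike-in scale and all libraries. At an unadjusted p below 0.05, limma gave 1 higher and 1 lower in PRC1CKO and 1 lower in PRC1CPM. Their median log2 fold change was 0.02 in PRC1CKO (from -0.53 to 0.55) and -0.0020 in PRC1CPM (from -0.46 to 0.40). Cbx1, a heterochromatin protein, was called lower in PRC1CKO with TMM scaling and without PRC1CKO UNT replicate 2, and Pcgf5 was called higher there without PRC1CKO UNT replicate 1.

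Of 9 canonical PRC1 subunits with a row, of 10 listed, 4 were called higher in each line, and 2 lower in PRC1CKO and 1 in PRC1CPM. Cbx8, a chromodomain reader of H3K27me3, went from a mean normalised read count of 11.3 to 90.5 in PRC1CKO (log2 fold change 2.86) and from 12.2 to 77.4 in PRC1CPM (2.87). Bmi1, the PCGF4 protein, rose by 2.43 and 1.33 on the log2 scale. Phc2, a polymerising SAM-domain subunit, rose by 0.70 and 0.78, but its PRC1CKO call was lost with TMM scaling and without OHT replicate 1, UNT replicate 2 or UNT replicate 3 of that line, and its PRC1CPM call without OHT replicate 1 or UNT replicate 3 of PRC1CPM. Its paralog Phc1 fell by 1.52 and 1.17, from a mean of 9976 to 3367 and from 15371 to 6848. Cbx7, the main CBX protein of ESCs, fell by 0.64 in PRC1CKO and was -0.33 in PRC1CPM, which was not called (adjusted p = 0.407). The PRC1CKO call of Cbx7 was lost without UNT replicate 1, OHT replicate 2 or OHT replicate 3 of that line.

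The list labelled as paralogs outside variant PRC1 held 14 genes, of which 1 was called higher in each line and 1 lower in PRC1CKO. It includes Mnt and Mlx, which are not paralogs of a subunit. L3mbtl4, a relative of L3mbtl2, went from a mean normalised read count of 24.0 to 192 in PRC1CKO and from 21.9 to 160 in PRC1CPM (log2 fold changes 2.95 and 2.92). E2f1, an activating E2F, was lower in PRC1CKO at -0.73 (adjusted p = 0.0293) and was not called in PRC1CPM (-0.34). Its PRC1CKO call was lost with no filter and when any PRC1CKO library other than UNT replicate 2 was left out. With TMM scaling Mnt, a MAX partner, was called lower in both lines. The paralogs of E2f6 from E2f2 to E2f8 were not called on the spike-in scale with all libraries and no block, but E2f8 and L3mbtl3 were called higher in PRC1CKO with the replicate block and without PRC1CKO UNT replicate 1.

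Germ cell genes known as targets of E2F6, MGA or L3MBTL2 were split, with 6 of 10 higher in both lines and 0 lower (limma, edgeR and DESeq2 alike), while 1 was lower at an unadjusted p below 0.05 by limma in each line. With both PRC1CPM replicate 1 libraries left out, 4 of 10 were called in PRC1CPM, without Stk31 and Dazl. Stk31 was also lost there without OHT replicate 1, and Dazl without OHT replicate 3 or UNT replicate 1. In PRC1CKO their median log2 fold change was 1.33 and in PRC1CPM 0.84. Ddx4, the germline RNA helicase, went from a mean normalised read count of 538 to 2558 in PRC1CKO and from 580 to 2033 in PRC1CPM. Mael, a piRNA pathway factor, went from 423 to 1932 and from 599 to 1538. Taf7l, a germ cell TFIID subunit, rose by 2.21 and 1.79 on the log2 scale and Slc25a31, a testis ADP/ATP carrier, by 2.52 and 1.89. Dazl, a germ cell RNA-binding protein, rose by 1.30 and 0.83 and Stk31 by 1.36 and 0.86. The meiotic cohesin and synapsis genes Stag3, Smc1b and Sycp3 and the testis tubulin Tuba3a were not called after OHT in either line, with log2 fold changes from -0.53 to 0.30, though Smc1b was called lower in both lines with TMM scaling.

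**Figure D4:**
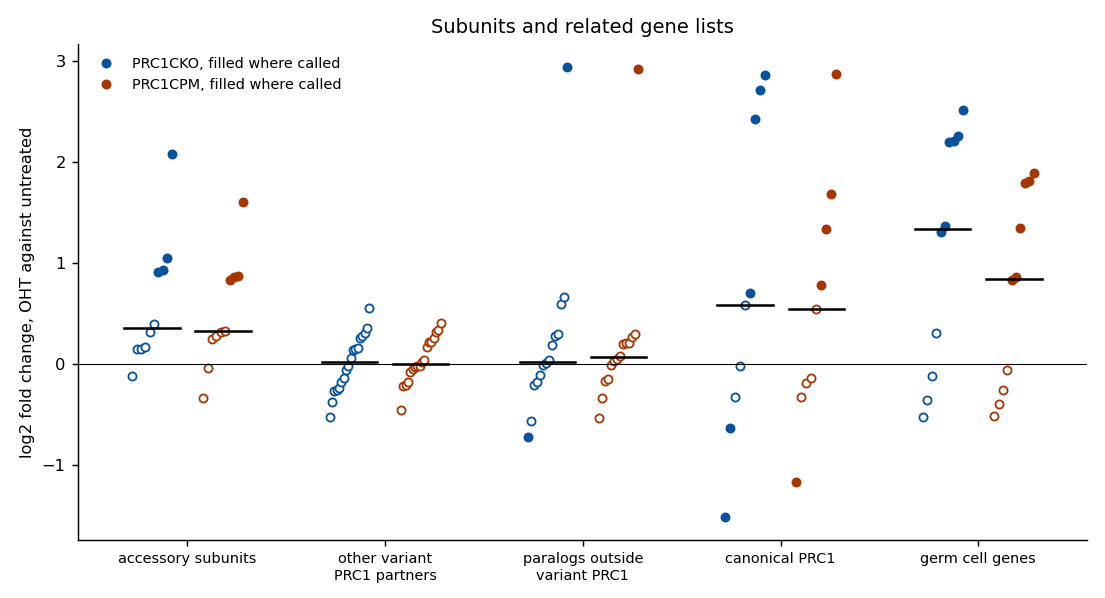
log2 fold change, OHT against untreated, of every tested gene of each list in PRC1CKO (blue) and PRC1CPM (brown), with medians as black bars. Filled points were called. The 4 subunits called in each line lie above 0.8, while all 18 other variant PRC1 partners are open points.

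The genes whose levels followed the risen subunits most closely over the 12 libraries were named by Pearson's r on the log2 scale, as a description over libraries that share the OHT treatment, depth and scaling. For Bcor these were Zic1 (0.992), Dio3 (0.992) and Slc7a2 (0.991), a zinc-finger transcription factor, a thyroid hormone deiodinase and a cationic amino acid transporter. For Bcorl1 they were Sned1 (0.993), Eomes (0.981) and Chst8 (0.980), among which Eomes is a T-box factor of mesendoderm and trophoblast. For Auts2 they were Atrnl1 (0.989), Srgap1 (0.987) and Tmem164 (0.985), and for E2f6 AU015836 (0.994), Cpm (0.991) and Tmem159 (0.991). Among the risen subunits themselves, r was 0.970 between Bcor and E2f6, 0.948 between Bcor and Bcorl1, and 0.968 between Bcorl1 and E2f6. With Auts2 it was 0.877 for E2f6, 0.864 for Bcor and 0.839 for Bcorl1. Subunits that were not called reached values near the lowest of these, with 0.859 between Bcorl1 and Fbrs, 0.829 between Auts2 and Yaf2 and 0.814 between E2f6 and Fbrs. Between Bcor and Mga r was -0.318.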

How the data were processed

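Calibrated RNA-seq was carried out on rRNA-depleted RNA of 12 mouse ESC libraries with Drosophila spike-in cells. The matched genomic DNA libraries were not analysed here. Per the methods and labels, the authors aligned reads to mm10 and dm6 with STAR and Bowtie 2, kept unique reads without duplicates, counted them over gene bodies of 20633 refGene transcripts (use of strand not stated), and divided by a DESeq2 size factor from dm6 genes corrected by genomic DNA. The deposited values are therefore normalised read counts (a signal, not raw counts). Dividing by the step of each library recovered whole reads for 100% of values within 0.02. The authors' own log2 fold changes and adjusted p-values, and their list of partially derepressed genes, were not used.

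The deposited values plus 1 were log2 transformed and a mean for each of 4 groups was estimated in limma 3.58.1 (trend, R 4.3.3) over the 16940 transcripts with at least 10 reads in 3 libraries. Calls required a Benjamini-Hochberg adjusted p under 0.05 and, except in the interaction, 1.5-fold. Alternatives were edgeR 4.0.16 and DESeq2 1.42.0 on recovered reads, TMM, no filter, pseudocount 0.1, a replicate block, 2 groups alone, each library left out, and rows of a symbol summed. It was tested on simulated data. Same-numbered libraries deviated together (mean r 0.205 over 18 pairs). Deviations from a group mean of 3 libraries sum to 0, so the -0.102 over 36 differently numbered pairs follows from this and is not separate evidence. Every pair was over 0.1 except replicate 2 of PRC1CKO UNT and OHT (0.0988). By this hint from the data, not the labels, the numbers may pair libraries, in PRC1CKO less clearly than in the other comparisons. The main fit ignored such pairing, so its standard errors and adjusted p-values do not account for it. The replicate block was the alternative that did. The named genes were all 10 subunits, list genes called in either OHT comparison (1 is not reported here), and the 3 genes most correlated with each risen subunit. The subunits and gene lists were chosen with earlier results of these data known. Exons and overlaps came from the RefSeq annotation of GRCm38. The counted Auts2 transcript was not found in it, so the exon share of Auts2 rests on other curated transcripts of the gene. Promoter starts matched the counted rows of Bcorl1, E2f6, L3mbtl2 and Mga, and for Kdm2b in an entry. They did not match for Bcor or for Fbrs, which lay 6263 bases away.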

Additional observations from a re-analysis of the deposited data

How the results depend on the processing

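The number of subunits called after OHT stayed at 4 in PRC1CKO under every alternative run, and at 4 in PRC1CPM except for a range of 3 to 4 when single libraries were left out. It stayed at 0 in the interaction and between the untreated lines. Between the OHT-treated lines it was 1 (Bcor) in place of 0 with TMM scaling, 1 with the replicate block and 1 with TMM and the block, and 0 to 0 when single libraries were left out. The direction of uncalled values turned when a library was left out for Rybp in PRC1CKO (-0.018 to 0.28), Mga in PRC1CKO (-0.21 to 0.013), L3mbtl2 in PRC1CPM (-0.15 to 0.15) and Bcor between the untreated lines (-0.24 to 0.073). The cause was not tested.

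The replicate block changed no other call of a subunit, though it moved the adjusted p of Yaf2 in PRC1CKO from 0.286 to 0.0229 at a change under 1.5-fold. It moved the number of genes called from 3311 to 4258 in PRC1CKO, 2463 to 3494 in PRC1CPM, 4 to 324 in the interaction, 455 to 1884 between untreated lines and 249 to 1363 between treated lines. With TMM these were 3978, 2991, 14, 1050 and 785. DESeq2 gave 15 in the interaction and 429 between treated lines, and no filter gave 0 and 157. Comparing 2 groups alone gave 275 (untreated) and 692 (treated).

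An uncalled subunit is not shown to be unchanged. In the main rows the 95% confidence intervals of uncalled changes reached up to 0.87 on the log2 scale (Yaf2 in PRC1CKO). That of the further Kdm2b row reached 0.88 in PRC1CPM. Reads per subunit and library ran from 300 upward. Without strand, reads of overlapping antisense genes cannot be told apart. Strand would also not separate 2 overlaps on the same strand. The pseudogene Gm52193 covers 6.89% of the Yaf2 body and the microRNA gene Mir7060 2.18% of the Fbrs body.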
